A study of Arabidopsis thaliana with 4 samples.

Results

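Glutathione S-transferases (GSTs) of Arabidopsis thaliana seedling roots were examined here in 4 RNA sequencing libraries. Members were the loci whose deposited protein description on the first listed transcript named a glutathione S-transferase or glutathione transferase, 54 of the 21531 loci with a read in any library. By gene symbol, 27 belonged to the tau class (GSTU), 12 to phi (GSTF), 3 to lambda (GSTL), 3 to theta (GSTT), 2 to zeta (GSTZ) and 3 to the dehydroascorbate reductases (DHAR), while 4 carried no class symbol (AT1G19550, AT1G65820, AT5G42150 and AT5G44000). A pair of loci with a GST symbol fell outside the rule: GSTF6, which none of the 4 tables listed, and GSTU13, whose description did not match.

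The roots came from luh-4, a line mutant in the transcriptional co-repressor gene LEUNIG_HOMOLOG (LUH), and from Columbia (Col), its wild type. The groups were luh-4 exposed to 25 µM AlCl3 (luh-4 Al), luh-4 without Al (luh-4 control), Col exposed to 25 µM AlCl3 (Col Al) and Col without Al (Col control). Each group was a pool of seedlings 6 d old sequenced as 1 library, so nothing below has a replicate check, and luh-4 is a single mutant line. All pools were in acidic nutrient solution. The treatment description has both arms sampled after 4 h, whereas the controls are labelled 0 h, so Al and time in that solution cannot be told apart. Libraries held 13.45, 13.74, 13.82 and 13.70 M reads assigned to transcripts in luh-4 Al, luh-4 control, Col Al and Col control. LUH had 0 reads in luh-4 Al and 0 in luh-4 control, against 63 in Col Al and 75 in Col control. All 9 root markers had reads in every library, with a summed level of 1671, 2352, 1656 and 2585 RPKM (reads per kilobase of coding length per 1 M reads) in the same order of libraries.

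GSTs join the tripeptide glutathione to electrophilic compounds, which are then moved into the vacuole, and several also reduce organic peroxides. Tau and phi are the large classes of plants and act mainly on foreign compounds and products of oxidative stress. Zeta enzymes work in tyrosine breakdown, and DHARs regenerate ascorbate with glutathione as the reductant. GST transcripts are widely used as markers of oxidative and chemical stress, and some have been described among the Al-responsive transcripts of plant roots.

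GST transcripts took a larger share of the library with Al in both genotypes. The 54 members together held 0.979% of reads in luh-4 Al (95% Clopper-Pearson interval 0.974 to 0.985%) and 0.743% in luh-4 control (0.739 to 0.748%). In Col they held 1.04% with Al (1.04 to 1.05%) and 0.766% in the control (0.761 to 0.77%). Summed reads, scaled to library totals, were 1.32-fold higher with Al in luh-4 and 1.36-fold higher in Col. All intervals cover counting error only and take each read as an independent draw. PCR copies are not independent molecules, so the intervals can be too narrow even for that. With 1 library per group they do not cover variation between pools. The phi class supplied most of these reads, 76.7, 76.6, 73.1 and 76.3% of the GST total in luh-4 Al, luh-4 control, Col Al and Col control, and the tau class supplied 18.7, 17.5, 22.3 and 18.1%.

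**Figure D1:**
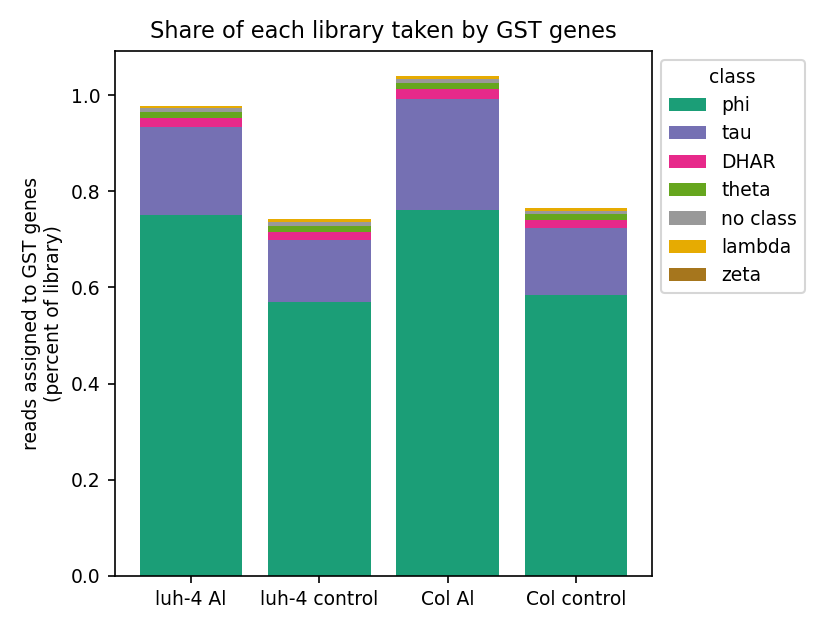
Stacked bars give the percent of each library's assigned reads that fell on GST genes, split by class, in 1 library per group. The bars reach 0.979% in luh-4 Al, 0.743% in luh-4 control, 1.04% in Col Al and 0.766% in Col control, and the phi class makes up most of each bar.

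A few genes carried the family. The 8 members of highest level in Col control, GSTF8, GSTF10, GSTF2, GSTU19, GSTF14, GSTF9, GSTF7 and GSTU27, held 83.5, 84.5, 81.5 and 84.7% of the summed GST level in RPKM in luh-4 Al, luh-4 control, Col Al and Col control. GSTF8, a phi enzyme long used as a stress-responsive promoter model, had 3720 RPKM in luh-4 Al, 2461 in luh-4 control, 3825 in Col Al and 2901 in Col control. It ranked 5, 11, 4 and 11 among all loci of those libraries. GSTF2, a phi protein known to bind auxin transport inhibitors and indole compounds, had 2832, 1826, 3015 and 1775 RPKM in the same order, and both Al libraries lay above both controls for both genes.

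GSTF10 had 2688 RPKM in luh-4 Al and 2547 in luh-4 control, against 2369 in Col Al and 2169 in Col control. Both luh-4 libraries lay above both Col libraries, by log2 ratios of 0.18 under Al and 0.23 without it. This difference passed neither the 2-fold rule nor the additive model given below. GSTF14, another phi member, had 490, 634, 557 and 719 RPKM in luh-4 Al, luh-4 control, Col Al and Col control, the Al libraries being the lower ones. GSTF9 had 382, 420, 367 and 418 RPKM and GSTU27 had 197, 204, 189 and 219 RPKM in that order, a narrow spread. At the other end, GSTF4, GSTF5, GSTF12, GSTU3, GSTU15, GSTU21 and AT1G19550 stayed under 1 RPKM in all libraries. GSTF12, the carrier protein needed for anthocyanin and tannin pigments, had at most 1 read in any library.

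**Figure D2:**
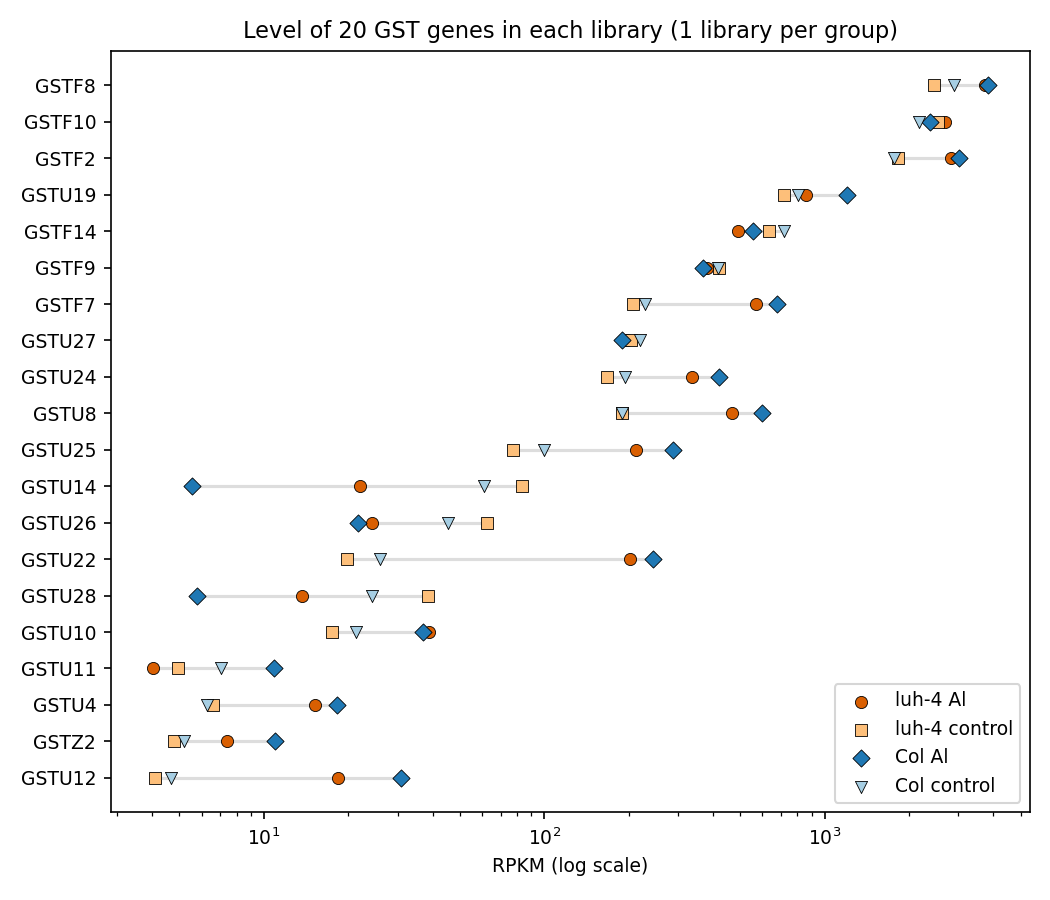
Points give the RPKM (log axis) of 20 GST genes, those called in a comparison that reached 5 RPKM or were called between genotypes and the 8 of highest level, ordered by their level in Col control, in 1 library per group. GSTF8, GSTF10 and GSTF2 lie above 1000 RPKM in every library, GSTU22 and GSTU12 are separated most upwards by Al, and GSTU14 and GSTU28 most downwards.

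The response to Al was described first. A member was measured where it reached 1 RPKM in a library compared. It was called higher or lower where the ratio of RPKM + 0.1 was at least 2-fold (a log2 ratio of 1 in size) and a 95% conditional binomial interval on the reads excluded equality. Fold changes and log2 ratios are on that scale, which understates the change of low genes. In luh-4, 9 of 46 measured members were higher with Al, beside 2.02% of all measured loci, and 3 were lower, beside 3.10%. In Col, 9 of 47 measured members were higher with Al, beside 2.60% of all measured loci, and 3 were lower, beside 2.91%. The median log2 ratio over the members was 0.04 in luh-4 and 0.16 in Col, and over all measured loci it was -0.02 in luh-4 and 0.02 in Col.

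The genes called in the genotypes were largely shared, and these comparisons share no library. GSTF7, GSTU24, GSTU25, GSTU12, GSTU22, GSTU4, GSTU8 and GSTF3 were higher with Al in both genotypes, and GSTU14, GSTU26 and GSTU28 were lower in both. GSTU10 was called higher in luh-4 alone and GSTZ2 in Col alone, and neither differed between the genotypes by the rule for differences given below. Members higher in both made up 17.4% of the 46 measured in both genotypes, against 1.19% of 16750 loci, and members lower in both 6.52% against 1.07%. Across the 46 members, which are not independent replicates, the log2 ratios of luh-4 and Col had a Pearson r of 0.927 and a Spearman rho of 0.827. The same correlations over all loci were not computed, so these values are not read as a trait of the family. Of the 13 members called in either genotype, 10 had the smaller log2 ratio in size in luh-4. Only GSTU14 of these differed by the rule given below. The matching share over all called loci was not computed, so this count is not read as a trait of the family.

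**Figure D3:**
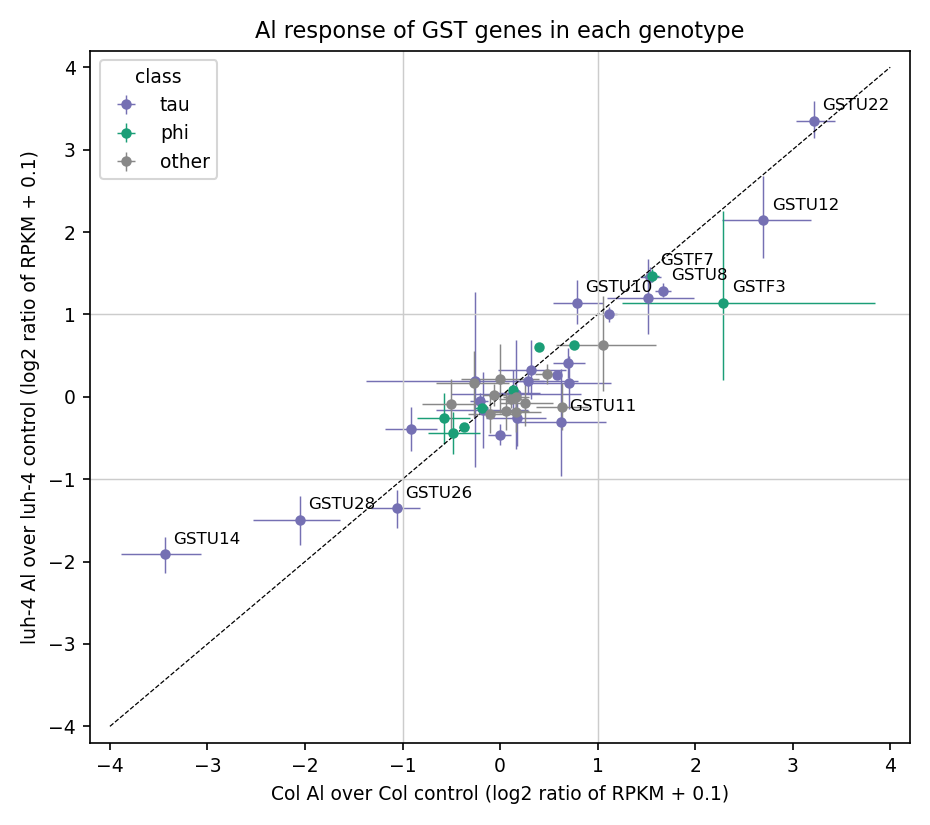
Each point is a GST gene measured in both genotypes, placed by its log2 ratio of Al to control in luh-4 (y) and in Col (x). Lines are 95% counting intervals, grey lines mark 2-fold, and the dashed line marks equal ratios. GSTU22 lies furthest up and GSTU14 furthest down, the second well above the line of equal ratios.

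An additive model with genotype and treatment terms (edgeR quasi-likelihood test, Benjamini-Hochberg adjustment over 17289 loci) was fitted to all 4 libraries. It leaves 1 residual degree of freedom, so its error measures how far the libraries depart from additivity and says nothing of variation between plants. By it 15 of 46 tested members rose with Al at an adjusted p of at most 0.05, beside 5.60% of all tested loci. A further 6 fell, beside 6.69%. Members called in neither genotype that rose in this fit were GSTF8, GSTF2, GSTU19, GSTU1 and DHAR2. Those that fell were GSTF14, GSTF11 and GSTU17.

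Tau genes spanned the whole range of the family. In luh-4, 7 of 24 measured tau members were higher with Al and 3 lower, beside 2.02% and 3.10% of all loci. In Col, 6 of 24 were higher and 3 lower, beside 2.60% and 2.91%. GSTU22 had 203 RPKM in luh-4 Al and 19.8 in luh-4 control, against 244 in Col Al and 26.0 in Col control. Both Al libraries lay far above both controls, with a log2 ratio of 3.35 (3.14 to 3.59) in luh-4 and 3.22 (3.03 to 3.43) in Col, or 10.2-fold and 9.34-fold. In the additive model it rose by 3.28 on the log2 scale (edgeR, adjusted p = 4.77e-10).

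GSTU24 and GSTU25 encode enzymes known to conjugate the explosive TNT in Arabidopsis. GSTU24 had 337 RPKM in luh-4 Al, 168 in luh-4 control, 421 in Col Al and 194 in Col control, and its log2 ratio was 1.0 (0.91 to 1.09) in luh-4, a call lost with a pseudocount of 1 RPKM, and 1.12 (1.04 to 1.2) in Col. GSTU25 had 212, 77.6, 289 and 99.8 RPKM in that order, with 1.45 (1.32 to 1.58) in luh-4 and 1.54 (1.43 to 1.65) in Col. Both genes were high in the Al libraries of both genotypes. Their neighbour GSTU26 had 24.4 RPKM in luh-4 Al and 62.6 in luh-4 control, against 21.7 in Col Al and 45.5 in Col control. It was the opposite case, with -1.35 (-1.59 to -1.13) in luh-4 and -1.06 (-1.32 to -0.82) in Col.

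Upstream sequences of GSTU22, GSTU24, GSTU25 and GSTU26 are shown because GSTU22 had the highest ratio of the family and the other 3 are neighbours that were called in opposite directions. Each line is the 250 bases before the annotated start of the gene in RefSeq's TAIR10.1 annotation, read 5′ to 3′ on the gene's strand. Capitals mark TGACG, the core of the as-1 element that TGA-type bZIP factors are known to bind, and a stretch shared by GSTU22 and GSTU24.
GSTU22, chr1:29474004-29474253, minus strand: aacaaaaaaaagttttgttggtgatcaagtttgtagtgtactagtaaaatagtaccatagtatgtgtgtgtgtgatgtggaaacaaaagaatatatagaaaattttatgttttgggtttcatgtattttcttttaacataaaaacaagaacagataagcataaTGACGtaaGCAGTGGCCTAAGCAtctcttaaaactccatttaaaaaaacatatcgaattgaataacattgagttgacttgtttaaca
GSTU24, chr1:5869293-5869542, plus strand: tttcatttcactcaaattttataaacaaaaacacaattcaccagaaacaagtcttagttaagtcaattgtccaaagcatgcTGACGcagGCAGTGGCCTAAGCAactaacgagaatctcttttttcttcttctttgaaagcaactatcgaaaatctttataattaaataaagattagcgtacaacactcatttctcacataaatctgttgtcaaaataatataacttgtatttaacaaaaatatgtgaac
GSTU25, chr1:5871774-5872023, plus strand: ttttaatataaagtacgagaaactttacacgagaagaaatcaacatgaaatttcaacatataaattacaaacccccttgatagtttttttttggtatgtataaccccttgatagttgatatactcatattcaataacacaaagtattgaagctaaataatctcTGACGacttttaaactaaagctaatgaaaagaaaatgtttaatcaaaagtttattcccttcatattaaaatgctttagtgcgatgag
GSTU26, chr1:5875045-5875294, plus strand: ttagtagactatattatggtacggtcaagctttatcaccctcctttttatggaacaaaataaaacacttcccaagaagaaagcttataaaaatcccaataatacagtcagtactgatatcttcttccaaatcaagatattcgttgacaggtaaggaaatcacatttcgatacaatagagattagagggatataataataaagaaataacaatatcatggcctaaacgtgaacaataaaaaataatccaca

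TGACG was searched on both strands, counting its reverse complement CGTCA. It began 87 bases before the start in GSTU22, 169 before it in GSTU24 and 87 before it in GSTU25, and was not found in the 250 bases of GSTU26. Of the 8 members higher in both genotypes 4 held it, the fourth being GSTF3, and of the 3 members lower in both 0 held it. It was found for 16 of 54 members (29.6%), for 11 of the 34 members measured and not called (32.4%) and for 18.6% of 27443 protein-coding genes of chromosomes 1 to 5. A pair of TGACG matches beginning at most 20 bases apart was found for 0 of the 8 higher members and 0 of the 3 lower ones. Such a pair was found for 2 of the 34 members not called, for 3.7% of members and for 1.16% of all genes. The 15 bases GCAGTGGCCTAAGCA stood 8 bases downstream of the first base of TGACG in both GSTU22 and GSTU24, and in no other of the 27443 windows. This stretch was sought after the sequences had been read, as the longest one shared by any pair of those 8 higher members. Its rarity follows a search among called genes and is no test. Its inner 10 bases GTGGCCTAAG were found in 5 of the 27443 windows, 2 of them windows of members. The shorter TGGCCTAA inside those 10 also stood in the window of GSTU26, which was lower in both genotypes. How many windows hold this shorter stretch was not counted. The W-box core TTGAC, bound by WRKY factors, was found for 6 of the 8 members higher in both genotypes, for 2 of the 3 lower in both, for 59.3% of members and for 44.9% of all genes. The G-box CACGTG was found for 0 of those 8, for 9.26% of members and for 6.49% of all genes. A match describes letters in a window and not a site in use.

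GSTU8 had 466 RPKM in luh-4 Al, 190 in luh-4 control, 600 in Col Al and 189 in Col control. The controls were nearly equal, and its log2 ratio was 1.29 (1.21 to 1.38) in luh-4 and 1.67 (1.59 to 1.75) in Col. GSTU12 was a low gene with 18.4, 4.09, 30.8 and 4.68 RPKM in that order, and ratios of 2.14 (1.68 to 2.68) in luh-4 and 2.70 (2.28 to 3.19) in Col. GSTU4 had 15.2, 6.58, 18.2 and 6.27 RPKM, with 1.2 (0.76 to 1.67) in luh-4 and 1.52 (1.1 to 1.99) in Col. GSTU10, with 38.7, 17.5, 37.1 and 21.4 RPKM, had 1.14 (0.88 to 1.42) in luh-4 and 0.79 (0.54 to 1.05) in Col. All 4 were higher in both Al libraries than in both controls.

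GSTU19, the most abundant tau transcript, encodes an enzyme active on model GST substrates and herbicides. It had 858 RPKM in luh-4 Al, 715 in luh-4 control, 1200 in Col Al and 802 in Col control. Its log2 ratio was 0.26 (0.21 to 0.31) in luh-4 and 0.58 (0.54 to 0.62) in Col, under the 2-fold rule in both, and in the additive model it rose by 0.42 (edgeR, adjusted p = 0.00322). Of the other tau members, GSTU1 rose by 0.55 (adjusted p = 0.00241). GSTU17, known as ERD9 and linked to drought and light responses, fell by 0.65 (adjusted p = 0.0133), and its annotated transcript overlaps that of GSTU18 on the same strand.

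GSTU14 and GSTU28 fell furthest. GSTU14 had 22.1 RPKM in luh-4 Al and 83.4 in luh-4 control, against 5.54 in Col Al and 61.2 in Col control. It was 3.76-fold lower with Al in luh-4 (log2 ratio -1.91, -2.14 to -1.70) and 10.9-fold lower in Col (-3.44, -3.89 to -3.07). GSTU28 had 13.7, 38.5, 5.79 and 24.3 RPKM in that order, with -1.49 (-1.80 to -1.2) in luh-4 and -2.05 (-2.53 to -1.64) in Col. For both genes luh-4 control was the highest library and Col Al the lowest. In the additive model GSTU14 fell by 2.51 (edgeR, adjusted p = 2.08e-05), GSTU28 fell by 1.74 (adjusted p = 2.77e-05) and GSTU26 fell by 1.22 (adjusted p = 2.39e-05).

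Some root markers were lower with Al as well. Of the 9 on the list 1 was lower with Al in luh-4, beside 3.10% of all measured loci, and 3 in Col, beside 2.91%. None of the 9 had 0 reads. The root hair expansin EXPA7 had 105 RPKM in luh-4 Al, 189 in luh-4 control, 38.9 in Col Al and 159 in Col control, and the tip-growth gene COBL9 had 30.6, 55.2, 15.4 and 48.4 RPKM. Both were lowest in Col Al, as was the root hair gene PRP3 with 169, 201, 77.4 and 150 RPKM. TIP2;3, the marker called lower in both genotypes, had 5.33, 23.5, 8.07 and 22.9 RPKM and was lowest in luh-4 Al, as were the transporter genes PHT1;1 and IRT1. SHR, SCR and CASP1 had ratios between -0.10 and 0.13 in either genotype. The part of these markers in the GST values was not tested, and fewer cells of a type and less RNA per cell cannot be told apart in such bulk libraries.

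Among the phi genes 2 of 9 measured members were higher with Al in luh-4, the same 2 in Col, and 0 were lower in either, beside the same shares of all loci. GSTF7, a defence-induced phi gene, had 570 RPKM in luh-4 Al, 207 in luh-4 control, 674 in Col Al and 229 in Col control. The Al libraries stood above the controls in both genotypes, with 1.47 (1.39 to 1.55) in luh-4 and 1.56 (1.48 to 1.63) in Col, and the additive model gave a rise of 1.51 (edgeR, adjusted p = 3.09e-08). Its coding sequence was 94.7% identical to that of the unlisted GSTF6, with an unbroken identical run of 116 bases, so reads of both genes may be counted in it. GSTF3 had 29 reads in luh-4 Al, 13 in luh-4 control, 38 in Col Al and 7 in Col control, and it passed the 1 RPKM minimum in Col only through the Al library. Its ratios, 1.14 (0.20 to 2.26) in luh-4 and 2.29 (1.25 to 3.84) in Col, rest on those few reads. With a pseudocount of 1 RPKM the luh-4 ratio was 0.82 and no longer called. Its coding sequence was 94.5% identical to that of the abundant GSTF2.

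The high phi genes moved less. GSTF2 had a log2 ratio of 0.63 (0.60 to 0.66) in luh-4 and 0.76 (0.74 to 0.79) in Col and rose by 0.69 in the additive model (edgeR, adjusted p = 2.93e-05). GSTF8 had 0.60 (0.57 to 0.62) in luh-4 and 0.40 (0.38 to 0.42) in Col and rose by 0.49 (adjusted p = 0.000945). GSTF14 fell by 0.37 (adjusted p = 0.00254), with the same ratio of -0.37 in both genotypes, and GSTF11, a phi member linked to glucosinolate synthesis, fell by 0.46 (adjusted p = 0.0316). GSTF9 and GSTF10 passed neither the 2-fold rule nor the model.

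Lambda, theta and DHAR, with 3 measured members each, gave 0 calls by the 2-fold rule in either genotype. Of all measured loci 2.02% were higher and 3.10% lower with Al in luh-4, and 2.60% and 2.91% in Col. With so few members, these counts are not read as a difference between classes. Theta genes, whose enzymes act mainly as peroxidases, had log2 ratios of Al to control between -0.18 and -0.03 in luh-4 and between 0.11 and 0.26 in Col. The 3 theta coding sequences were 89.7 to 91.5% identical, so their single values are uncertain. DHAR2, a cytosolic dehydroascorbate reductase, had 138 RPKM in luh-4 Al, 114 in luh-4 control, 157 in Col Al and 113 in Col control and rose by 0.38 in the additive model (edgeR, adjusted p = 0.00884). DHAR1 had 107, 105, 117 and 121 RPKM and DHAR3 had 27.6, 30.9, 27.7 and 26.5 RPKM, neither of them called by either measure. In Col control reads covered 57.2% of the coding length of DHAR1, 56.8% of that of GSTZ1, 65.5% for GSTL1, 64.6% for GSTU9 and 75.6% for GSTF9, against 100% for DHAR2 and GSTZ2. The part of this coverage in their levels was not tested. GSTL1 had 20.5 RPKM in luh-4 Al and 22.2 in luh-4 control, against 30.6 in Col Al and 19.7 in Col control. It was high in Col Al, with a ratio of -0.12 (-0.40 to 0.17) in luh-4 and 0.63 (0.37 to 0.90) in Col. GSTZ2 had 7.41 RPKM in luh-4 Al, 4.77 in luh-4 control, 11 in Col Al and 5.21 in Col control, a ratio of 0.63 (0.07 to 1.22) in luh-4 and 1.06 (0.57 to 1.60) in Col. GSTZ1, the maleylacetoacetate isomerase, had 12.1, 10.7, 12.0 and 14.5 RPKM. It was called in neither genotype, and its coding sequence was 88.1% identical to that of GSTZ2.

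Neighbouring GST genes were not always called alike by the 2-fold rule. Of the 54 members 33 lay in 11 arrays, defined as members with at most 1 other gene between them. GSTU24, GSTU25 and GSTU26 are consecutive genes at chr1:5869543-5876620 (TAIR10.1) with coding sequences 70.9 to 80.8% identical, the first 2 higher with Al and the third lower in both genotypes. In the array of GSTU23, GSTU22, GSTU21, GSTU20 and GSTU19 at chr1:29467412-29488007, GSTU22 was called higher in both genotypes. GSTU23, GSTU20 and GSTU19 were measured and not called, with ratios of -0.16, -0.46 and 0.26 in luh-4 and -0.18, -0.00 and 0.58 in Col. In the array of 7 tau genes from GSTU7 to GSTU1 at chr2:12617936-12632538, GSTU4 was the one member called of 6 measured, with ratios from -0.26 to 1.2 in luh-4 and from 0.17 to 1.52 in Col. GSTU12 and GSTU11 at chr1:26334250-26338818 had 2.14 and -0.30 in luh-4 and 2.70 and 0.62 in Col, with coding sequences 62.6% identical. GSTU19 and GSTU1, not called by the 2-fold rule, rose with Al in the additive model.

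**Figure D4:**
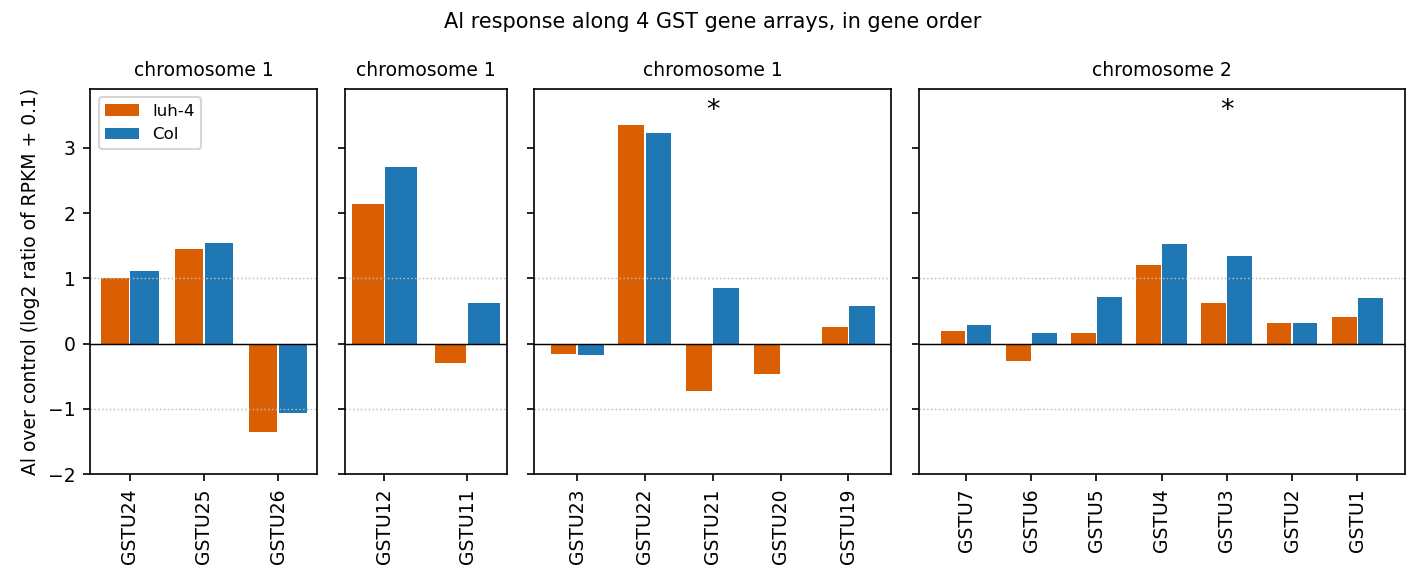
Bars give the log2 ratio of Al to control of each GST gene in gene order along 4 arrays, for luh-4 and Col, with dotted lines at 2-fold and no error bars because each ratio is of 2 libraries. Stars mark GSTU21 and GSTU3, which were under 1 RPKM in every library. GSTU26 points down beside GSTU24 and GSTU25, and in its array only GSTU22 passes the 2-fold line.

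The second question was how the mutant differed from the wild type. Without Al, 0 of 47 measured members were higher in luh-4 control than in Col control by the 2-fold rule, beside 1.55% of all measured loci, and 0 were lower, beside 0.855%. The member nearest the limit was GSTU5, with 17.1 RPKM in luh-4 control and 8.54 in Col control, a log2 ratio just under 1 (0.61 to 1.41). Under Al, 2 of 47 members were higher in luh-4 than in Col, beside 1.22% of loci, and 1 was lower, beside 0.946%. The 2 higher ones were GSTU14 at 1.98 (1.57 to 2.45) and GSTU28 at 1.22 (0.77 to 1.73). The lower one was GSTU11, with 4.01 RPKM in luh-4 Al and 4.96 in luh-4 control, against 10.9 in Col Al and 7.04 in Col control, at -1.42 (-2.02 to -0.89). Col Al was its highest library. Counts this small are not read as a property of the family.

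The difference between the Al responses, luh-4 minus Col, was called at 1 or more in log2 size with a 95% normal interval on log reads that excluded 0. By it 1 of 47 members, GSTU14, had the higher ratio in luh-4, beside 1.35% of loci, and 0 had the lower, beside 2.26%. The difference for GSTU14 was 1.53 (1.1 to 1.99), since its fall with Al was less deep in luh-4. It was 0.56 (0.05 to 1.09) for GSTU28, -0.92 (-1.68 to -0.18) for GSTU11 and -0.29 (-0.62 to 0.04) for GSTU26. These differences reuse the libraries of the comparisons above and are no separate evidence. GSTU14 is 87.3% identical over its coding sequence to GSTU13, with no identical run longer than 34 bases.

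**Figure D5:**
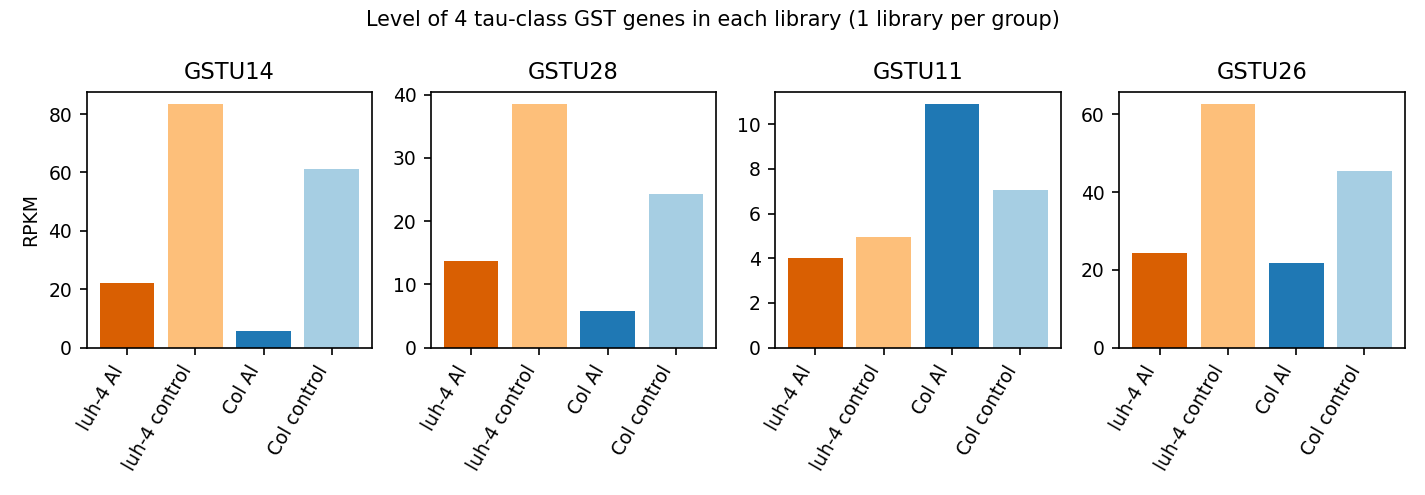
Bars give the RPKM of GSTU14, GSTU28, GSTU11 and GSTU26 in each library, 1 per group and without error bars, each panel with its own axis from 0. GSTU14 and GSTU28 are lowest in Col Al, GSTU11 is highest there, and GSTU26 has nearly equal levels in the Al libraries.

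In the additive model, 1 of 46 tested members was higher in luh-4 over both treatments, beside 0.353% of loci, and 1 was lower, beside 0.602%. GSTU28 was higher by 0.86 (edgeR, adjusted p = 0.0401) and GSTU25 lower by 0.41 (adjusted p = 0.0279). GSTU14 had 0.93 (adjusted p = 0.0987), since its genotype difference was 1.98 under Al and 0.45 without it, which this model takes as error. Both calls were lost under other settings of the model. They numbered 0 and 0 with median-of-ratios size factors or DESeq2.

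Summed over the class, tau transcripts were lower in luh-4 under Al, at 0.183% of reads in luh-4 Al and 0.232% in Col Al, a log2 ratio of -0.34 (-0.36 to -0.32). Without Al they held 0.13% in luh-4 control and 0.138% in Col control (-0.08, -0.11 to -0.05). The Al response of the summed tau reads was 0.49 (0.47 to 0.52) in luh-4 and 0.75 (0.72 to 0.77) in Col. Leaving out GSTU19, which supplies many of these reads, the values were 0.61 (0.57 to 0.64) in luh-4 and 0.84 (0.81 to 0.88) in Col. The summed phi reads had close Al responses, 0.40 (0.39 to 0.41) in luh-4 and 0.38 (0.37 to 0.39) in Col, and differed between the genotypes under Al by -0.02 (-0.03 to -0.01). Of single tau genes under Al, GSTU19 had -0.48 (-0.53 to -0.44), GSTU25 -0.45 (-0.54 to -0.36), GSTU8 -0.36 (-0.42 to -0.30) and GSTU24 -0.32 (-0.39 to -0.25) in luh-4 against Col, all within 2-fold. Over the 24 measured tau members, 9 had a ratio above 0 under Al, and their median log2 ratio was -0.21, beside -0.02 over all measured loci. The share of all loci above 0 was not counted.

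Other transcripts differed between the control libraries. Of 15 green shoot markers, all with reads in every library, 7 were higher in luh-4 control than in Col control, beside 1.55% of all loci, and their summed level was 147 RPKM in luh-4 Al, 404 in luh-4 control, 128 in Col Al and 168 in Col control. Of 8 measured jasmonate response genes 7 were higher in luh-4 control, beside the same share, with summed levels of 46.3, 87.6, 56.5 and 31.9 RPKM in that order. Of these, LOX3, LOX4, JAZ10 and TAT3 passed the 1 RPKM minimum only through luh-4 control, the library where they were high. They had 1.71, 5.52, 3.33 and 4.57 RPKM there and 0.238, 0.919, 0.636 and 0.491 RPKM in Col control, so the count is raised by the minimum. GSTs gave 0 calls among 47 measured members in that same comparison, beside 1.55% of all loci higher and 0.855% lower. With shares of all loci so small, this count is not read as a contrast with the 2 lists. The part of these lists in the luh-4 ratios of Al to control was not tested.

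Genes of glutathione supply and of other detoxification steps were set beside the family. Of 18 genes of the glutathione cycle and the fate of its conjugates 12 were listed and 11 measured. GSH1, GR1, GGT1, CLT2, ABCC1 and ABCC2 were listed for no library, so their levels are not known here. Of the 11 measured, 0 were lower with Al in either genotype, beside 3.10% of all loci in luh-4 and 2.91% in Col. In each genotype 1 was higher, beside 2.02% in luh-4 and 2.60% in Col. That gene was GGCT2;1, which breaks down glutathione in the cytosol, with 7.42 RPKM in luh-4 Al, 2.46 in luh-4 control, 5.56 in Col Al and 1.68 in Col control. Its log2 ratio was 1.56 (0.88 to 2.36) in luh-4 and 1.67 (0.87 to 2.66) in Col. GSH2, glutathione synthetase, had 119, 125, 128 and 117 RPKM in the same order and GR2, the plastid and mitochondrial glutathione reductase, 64.8, 64.4, 68.4 and 64.7 RPKM, with little spread. Of 6 measured glutathione peroxidase genes 0 were called in either genotype, beside the same shares, and GPX3 was not listed. Of the TGA factors and their partner SCL14, 3 of 7 were listed, without TGA1, TGA2, TGA4 and TGA5. Of 2 measured 0 were called, and TGA3 had 0.46 (0.31 to 0.61) in luh-4 and 0.51 (0.37 to 0.65) in Col. With so few genes measured, these counts are not read as a contrast with the GSTs.

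A list of other detoxification genes had higher ratios at its median, 0.73 in luh-4 and 0.84 in Col. In luh-4, 3 of 10 measured members were higher with Al and 0 lower, beside 2.02% and 3.10% of all loci. In Col the counts were 3 of 11 and 0, beside 2.60% and 2.91%. CYP81D11 of the same list had the opposite sign, with -0.68 (-0.99 to -0.39) in luh-4 and -0.28 (-0.58 to 0.02) in Col. The cytochrome P450 gene CYP81D8 had 9.01 RPKM in luh-4 Al, 3.02 in luh-4 control, 9.25 in Col Al and 3.32 in Col control, with 1.54 (1.15 to 2.02) in luh-4 and 1.45 (1.07 to 1.90) in Col. The glucosyltransferase gene UGT73B4 had 1.41 (1.04 to 1.83) in luh-4 and 1.47 (1.09 to 1.92) in Col. NIT4, a nitrilase of cyanide detoxification, had 2.48 (1.66 to 3.77) in luh-4 and 1.14 (0.62 to 1.74) in Col, from 10 reads in luh-4 control. Its level there was 0.682 RPKM, so it passed the minimum in luh-4 only through the Al library, with 4.25 RPKM, and between the control libraries only through Col control, with 2.8 RPKM. Between the genotypes, 2 of 11 measured members of the list were lower in luh-4 under Al, beside 0.946% of all loci. They were UGT74E2 at -1.43 (-1.73 to -1.15) and the transporter gene DTX3, with 1 read in luh-4 Al and 36 in Col Al. DTX3 reached 1 RPKM in Col Al alone of the libraries compared. Without Al 2 of 10 measured members were lower, beside 0.855% of all loci, UGT74E2 at -1.38 (-1.81 to -1.01) and NIT4 at -1.89 (-3.20 to -1.02). UGT74E2, which glucosylates the auxin indole-3-butyric acid, had 7.53 RPKM in luh-4 Al, 4.01 in luh-4 control, 20.4 in Col Al and 10.6 in Col control, so both luh-4 libraries lay below both Col libraries.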

How the data were processed

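Polyadenylated RNA of roots was sequenced in 4 libraries, 1 per group, grouped by the genotype and treatment labels. Per the file headers, the authors deposited read counts per transcript, coding lengths, the percent of each coding sequence that reads covered, and RPKM values scaled by coding length and library total. Genome build TAIR10 is named in the submitters' processing notes. Aligner, counter and strand setting: not given in the sources used here. Reads of antisense partners or near-identical copies can therefore not be told apart. A transcript absent from a library's table was given 0 reads there, and 3 reads, the limit that a count of 0 allows, are 0.217 to 0.223 RPKM at 1000 bases.

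Counts and RPKM were summed per locus. All 54 members were found in the RefSeq gene table, which gave symbols and classes, and sequences came from RefSeq TAIR10.1. No protein sequence was used here. Ratios took a pseudocount of 0.1 RPKM and a minimum of 1 RPKM. The members and gene lists were chosen with earlier results of these data known. Library values are given for members called in an Al response that reached 5 RPKM, for those called between genotypes and for the 8 highest in Col control. GSTF3 and members named for the model alone, GSTU5, GSTL1, the marker genes and the 3 DHAR and 2 zeta genes were chosen after their values were seen. The count model was edgeR 4.0.16 in R 4.3.3 with TMM factors. Alternatives were pseudocounts of 1 and 0.01, minimums of 5 RPKM and none, TMM or median centring, the first listed transcript alone, median-of-ratios factors, DESeq2 1.42.0 and no filter on low reads. The scripts used Python 3.11.15, pandas 2.3.3, scipy 1.17.1 and Biopython 1.88, and were tested on simulated data.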

Additional observations from a re-analysis of the deposited data

How the results depend on the processing

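Counts of members called by the 2-fold rule were within 1.5 times of the values given under every alternative, except that 1 member, not 0, was higher in luh-4 without Al with a pseudocount of 0.01 RPKM. In the additive model, members higher in luh-4 over both treatments numbered 0 with median-of-ratios factors, 0 with DESeq2 and 3 without a filter on low reads, and members lower numbered 0, 0 and 4, so the 1 and 1 calls of that comparison depend on the setting. Ratios were recomputed singly for the 20 named genes and GSTF3. Of these, 3 calls missed the rule once the pseudocount was 1 RPKM, GSTZ2 in Col at 0.95, GSTF3 in luh-4 at 0.82 and GSTU24 in luh-4 just under 1, and 0 reversed. Members higher with Al in both genotypes then numbered 6 in place of 8, and 7 with a minimum of 5 RPKM. No paired analysis was possible because each group holds 1 library, so the groups share fewer than 2 replicate numbers. Leaving out a library was not possible, since each group has 1 and the additive model would keep no residual degree of freedom. Without replicates, differences between pools of plants cannot be separated from those of genotype or treatment, and genes under about 1 RPKM, such as 7 of the 54 members, had too few reads to compare.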
